A study of Mus musculus with 73 samples.

Results

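The genes described here are the 9 that write, maintain and erase methylation of cytosine in DNA: Dnmt3a, Dnmt3b, Dnmt3l, Dnmt1, Uhrf1, Tet1, Tet2, Tet3 and Tdg. They were chosen by function, by their symbols, from the 37310 genes of the RNA count table. All 9 were found, and all 9 were among the 16636 genes that passed the filter on low counts. The study edited the X-inactivation centre, where Xist and its antisense partner Tsix lie, and asked how its organisation bears on both genes. RNA was sequenced from undifferentiated E14Tg2a cells, a male mouse embryonic stem (ES) cell line (strain 129/Ola, XY), in 12 libraries. The labels give 4 libraries the genotype 40kb [Tsix-Xist] (clones 2G1 and 3D5, here clone 1 and clone 2, with 2 replicates each) and 4 the genotype 70kb [Xite-Jpx] (clones 18C6 and 20E7, likewise). Each allele has 2 wild-type libraries (WT) that its labels name as its own, called here the wild type of the 40kb set or of the 70kb set.

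By the labels' protocols the cultures of every group were alike: no feeders, a gelatin coat, and medium with serum and leukemia inhibitory factor (LIF). The labels name no agent given to 1 group alone. Targeted deletions and inversions were made with CRISPR or TALENs, and the labels of these samples do not say which kind these alleles are. Each clone is 1 clonal line, and nothing in the labels says that replicates came from separate cultures, so p-values measure the spread between these libraries, which may be technical. The column names of the table also carry a code with the letter B (2 and 6 for wild type, 1 and 2 for clone 1 and 5 and 6 for clone 2 in the 40kb set, 13 and 14 throughout the 70kb set) whose meaning the sources used here do not give.

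In mammals, DNA methylation sits mostly on the cytosine of the dinucleotide CpG. DNMT3A and DNMT3B place it on unmethylated DNA, DNMT3L binds them and stimulates them without activity of its own, and DNMT1, led to newly replicated DNA by UHRF1, copies it to the new strand. TET enzymes oxidise 5-methylcytosine, and the glycosylase TDG removes the more oxidised bases, which are then replaced by unmodified cytosine. ES cells express both arms together, and their global methylation depends on the culture and on how close they are to the naive state of pluripotency. Only RNA levels of these genes were measured here, so neither enzyme activity nor methylation is reported.

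Library totals ran from 34514493 to 46605508 counts. Levels are CPM, that is counts scaled to a common library total after TMM adjustment, and they compare a gene between libraries, not one gene with another, since they are not divided by transcript length. As a check of the labels, Xist lay between 14.7 and 82.0 CPM in the 40kb libraries and between 0.734 and 0.801 CPM in their wild type, and between 4.63 and 8.75 CPM in the 70kb libraries against 0.832 and 2.25 CPM. Defining genes of ES cells (a list of 12 with Pou5f1, Sox2 and Nanog) were present in all 12 libraries, at a summed level of 2996 to 5655 CPM, with none at 0. In bulk RNA, fewer cells of a type and less RNA per cell cannot be told apart.

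Among the 9 genes, 2 passed the test in the 40kb libraries, both higher: Tet2 (2.17-fold) and Dnmt3l (1.58-fold). Their start regions are shown because these are the genes the results turn on and because the dinucleotide they act on can be counted there. The RefSeq windows (build GRCm38.p6, 250 bases before to 50 after an annotated start, 5′ to 3′ on the gene's strand, CpG in capitals) are 1 for Tet2 at chr3:133544341-133544640 on the minus strand, and 3 for Dnmt3l on the plus strand at chr10:78042037-78042336, chr10:78049592-78049891 and chr10:78055085-78055384.
Tet2: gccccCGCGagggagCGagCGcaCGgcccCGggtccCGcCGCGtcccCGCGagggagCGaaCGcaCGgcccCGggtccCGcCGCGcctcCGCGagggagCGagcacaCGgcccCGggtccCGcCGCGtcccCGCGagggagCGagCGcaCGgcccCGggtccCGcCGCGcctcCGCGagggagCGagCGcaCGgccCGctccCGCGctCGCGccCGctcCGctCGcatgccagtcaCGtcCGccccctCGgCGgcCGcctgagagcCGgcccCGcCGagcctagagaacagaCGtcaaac
Dnmt3l start 1: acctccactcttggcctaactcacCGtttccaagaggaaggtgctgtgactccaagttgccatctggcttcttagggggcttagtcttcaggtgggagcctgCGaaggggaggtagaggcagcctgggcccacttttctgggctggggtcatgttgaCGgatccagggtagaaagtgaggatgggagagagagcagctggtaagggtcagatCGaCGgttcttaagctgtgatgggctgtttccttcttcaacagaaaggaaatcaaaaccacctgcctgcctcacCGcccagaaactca
Dnmt3l start 2: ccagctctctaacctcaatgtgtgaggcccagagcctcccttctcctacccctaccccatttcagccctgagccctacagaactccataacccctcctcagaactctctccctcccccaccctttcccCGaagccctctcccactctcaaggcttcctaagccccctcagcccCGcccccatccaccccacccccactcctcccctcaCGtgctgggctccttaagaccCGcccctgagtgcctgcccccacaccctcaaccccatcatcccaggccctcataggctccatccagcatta
Dnmt3l start 3: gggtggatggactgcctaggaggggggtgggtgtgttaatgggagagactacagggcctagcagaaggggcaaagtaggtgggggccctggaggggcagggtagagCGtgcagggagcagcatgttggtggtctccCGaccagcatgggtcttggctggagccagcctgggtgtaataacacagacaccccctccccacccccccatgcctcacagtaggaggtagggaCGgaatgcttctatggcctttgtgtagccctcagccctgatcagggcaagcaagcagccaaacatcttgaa
The Tet2 window holds 57 CpG. Of all 32851 windows of the same length, 99.8% hold fewer CpG, and the median window holds 7. The Dnmt3l windows hold 6, 4 and 3 CpG, and so the 2 genes that were called lie on opposite sides of that median. Among the other genes, the Tet3 window holds 22 CpG, that of Tet1 17, that of Tdg 26 and that of Dnmt3b 30, while the alternative starts of Dnmt3a (46, 47 and 18), Dnmt1 (2, 12 and 33) and Uhrf1 (12 and 33) differ among themselves. Counts per gene do not tell which start was used. Of 6 motifs searched on both strands, the E2F motif TTTGGCGC was found in the third Dnmt1 window and in 0.514% of all windows, and the E-box CACGTG in the second Dnmt3l window, the third Dnmt3a window and that of Tdg and in 7.15% of all windows. The GC box GGGCGG, in 35.7% of all windows, was found once in the Tet2 window, in the first Dnmt3l window (1 match) and the second (2 matches), in the third Dnmt1 window and in every window of Dnmt3a, Dnmt3b, Uhrf1, Tet1 and Tet3. The E2F motif TTTCCCGC, the octamer ATGCAAAT and the STAT motif TTCCNGGAA had no match in the 16 windows (1.07%, 1.74% and 1.15% of all windows).

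The question of the first comparison is how the 9 genes stand in cells with the 40kb allele against the wild type of the same set. In edgeR's quasi-likelihood test with Benjamini-Hochberg adjustment over all genes tested, 2 of 9 were called higher and none lower, against 6.43% of all genes called (0.763% higher and 5.67% lower). At an unadjusted p under 0.05 there were 3 of 9, against 23.5% of all genes. DESeq2 called 2 of 9 as well, but it called 1874 genes in all, against 1070 by edgeR. The median log2 fold change of the 9 genes was 0.28, beside 0.06 for all genes tested, with 6 above 0 and 3 below.

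**Figure D1:**
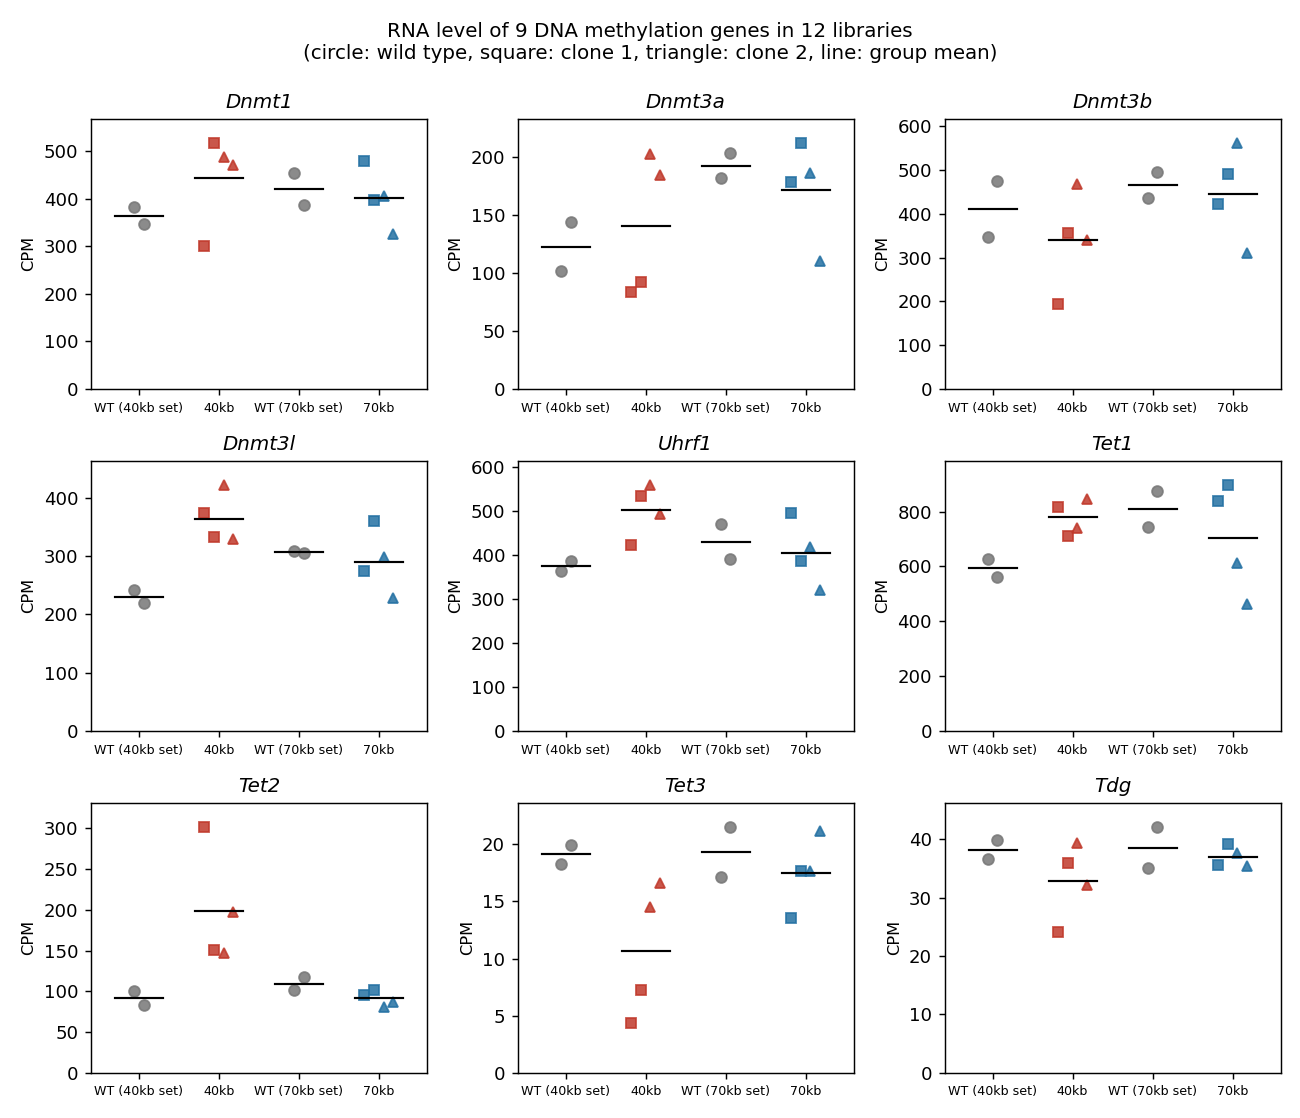
RNA level of each gene in the 12 libraries, as TMM-scaled CPM (linear axis from 0), by group; circles are wild type, squares clone 1, triangles clone 2, and lines group means. All 4 40kb libraries of Tet2 (147 to 301 CPM) and of Dnmt3l (330 to 422 CPM) lie above every wild-type library, and the 40kb clones lie apart for Dnmt3a and Tet3.

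The de novo writers did not move as a group. Dnmt3l (ENSMUSG00000000730.7), the cofactor without catalytic activity, had 242 and 219 CPM in wild type and 374, 332, 422 and 330 CPM in the 40kb libraries (clone 1 first, then clone 2). All 4 edited libraries lay above both wild-type libraries. Dnmt3l rose from a mean of 230.4 ± 16.1 CPM (SD, n = 2) to one of 365 ± 43.4 CPM (SD, n = 4), by 0.66 in log2 terms (SE 0.17, adjusted p = 0.0399, edgeR). The clone means were 353 and 376 CPM. Where a B code was shared, the values were 332 against 242 CPM for code 2 and 330 against 219 CPM for code 6. Dnmt3l was higher in every edited library, so the direction within such pairs was fixed in advance. It was not called when wild-type replicate 1, wild-type replicate 2, clone 1 replicate 1, clone 1 replicate 2 or clone 2 replicate 1 was left out (adjusted p between 0.0613 and 0.36, edgeR), with either clone alone (0.0667 and 0.11) or with counts summed per clone (0.0559). Nor was it called against the 70kb set's wild type (log2 fold change 0.25, adjusted p = 0.543), against all 4 wild-type libraries (0.44, adjusted p = 0.0923) or with blocking on the B code (0.52, adjusted p = 0.151). The blocked value rests on the libraries of codes 2 and 6 alone, since the other codes of the set have no wild-type library.

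Aire, a gene that overlaps Dnmt3l in the annotation of GRCm38.p6, was also counted. It had 20.0 and 28.2 CPM in wild type and 49.2 to 77.0 CPM in the 40kb libraries, and differed by 1.33 in log2 terms (SE 0.38, adjusted p = 0.0558, edgeR). The kit marks strand, the sources used here do not say how strand was set in counting, and the part of shared reads in the Dnmt3l counts was not tested.

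The catalytic partners of Dnmt3l were not called. Dnmt3a (ENSMUSG00000020661.9) had 102 and 144 CPM in wild type, 84.0 and 92.1 CPM in the first 40kb clone, and 203 and 185 CPM in the second. Clone 1 lay below both wild-type libraries and clone 2 above both, and the mean of the 4 libraries, 141 ± 61.7 CPM (SD, n = 4), describes neither clone. The log2 fold change over both clones was 0.20 (SE 0.35, adjusted p = 0.764, edgeR). It was -0.48 with clone 1 alone and -0.16 against all 4 wild-type libraries. Dnmt3b (ENSMUSG00000027478.9), the de novo enzyme that with DNMT3A methylates the early embryo, had 348 and 475 CPM in wild type and 195, 355, 468 and 340.1 CPM in the 40kb libraries. The ranges overlapped, and clone 1 replicate 1 was the lowest of all 12 libraries. Its log2 fold change was -0.28 (SE 0.29, adjusted p = 0.596).

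Within a library the balance of the cofactor and its partner can be followed without scaling. The count of Dnmt3b was 1.44 and 2.17 times that of Dnmt3l in the wild-type pair of this set, and 0.52, 1.07, 1.11 and 1.03 times that of Dnmt3l in the 40kb libraries. In the other 6 libraries the ratio lay between 1.36 and 1.88. The 4 lowest ratios of the 12 were those of the 40kb libraries. Dnmt3l, the divisor, was already known to be higher in these libraries than in their wild type. The ratio thus partly restates that rise and is a description. The ratio is of counts, not of molecules, since transcript lengths were not used.

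Neither gene of maintenance methylation was called. Uhrf1 (ENSMUSG00000001228.8), which reads hemimethylated DNA, had 364 and 387 CPM in wild type and 422, 535, 559 and 494 CPM in the 40kb libraries, all 4 above both. The log2 fold change of 0.42 (SE 0.17) had an unadjusted p of 0.0309 and an adjusted p of 0.167 (edgeR). Dnmt1 (ENSMUSG00000004099.8), the maintenance methyltransferase, had 382 and 346 CPM in wild type and 299, 516, 487 and 470.1 CPM in the 40kb libraries. Clone 1 replicate 1 lay below wild type and the other 3 above, with a log2 change of 0.28 (SE 0.21, adjusted p = 0.425).

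Of the 3 TET genes Tet2 alone was called in the 40kb libraries, and Tet3 stood on the other side of wild type. Tet2 (ENSMUSG00000040943.7), the TET enzyme that lacks a DNA-binding CXXC domain of its own, had 100.7 and 82.8 CPM in wild type and 301, 150.3, 147 and 197 CPM in the 40kb libraries. Every edited library was above both wild-type libraries, and clone 1 replicate 1 was the highest of the 12. Tet2 rose from a mean of 91.8 ± 12.7 CPM (SD, n = 2) to one of 199 ± 72.0 CPM (SD, n = 4), by 1.12 in log2 terms (SE 0.26, adjusted p = 0.0289, edgeR). Without clone 1 replicate 1 the log2 fold change was 0.83 (SE 0.16, adjusted p = 0.0378). Between libraries of the same B code the values were 150.3 against 100.7 CPM (code 2) and 197 against 82.8 CPM (code 6). Their direction was fixed in advance, since the groups did not overlap. With the code as a block the log2 fold change was 0.91 (adjusted p = 0.0468, edgeR). Codes 1 and 5 have no wild-type library, so this value rests on the same libraries of codes 2 and 6 and adds no separate evidence. No call was made when wild-type replicate 1 (adjusted p = 0.11) or wild-type replicate 2 (adjusted p = 0.299) was left out, in the 6 libraries of the set alone (adjusted p = 0.0694), against the 70kb set's wild type (0.86, adjusted p = 0.201), with clone 2 alone (0.89, adjusted p = 0.0778) and with counts summed per clone (adjusted p = 0.0559).

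Tet1 (ENSMUSG00000047146.8), a CXXC-domain enzyme characteristic of ES cells, had 626 and 563 CPM in wild type and 817, 712, 739 and 847 CPM in the 40kb libraries. The groups did not overlap, but the log2 fold change of 0.39 (SE 0.22) was not called (adjusted p = 0.304, edgeR) and was -0.05 against the 70kb set's wild type. Tet3 (ENSMUSG00000034832.8), known as the TET enzyme of the zygote and of neurons, stood at 18.3 and 20.0 CPM in wild type, 4.39 and 7.22 CPM in the first 40kb clone, and 14.5 and 16.6 CPM in the second. It was the 1 gene of the 9 whose edited libraries all lay below wild type. The log2 fold change of -0.84 (SE 0.39) was not called (adjusted p = 0.218). With clone 1 alone it was -1.72 (adjusted p = 0.0214) and with clone 2 alone -0.30 (adjusted p = 0.432).

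The ratio of Tet2 to Tet3 counts within a library was taken after both genes had been seen on opposite sides of wild type, which fixes its direction in the 40kb libraries, so it is a description of size. It was 5.52 and 4.14 in their wild type, 68.7 and 20.8 in clone 1, and 10.1 and 11.8 in clone 2. In the other 6 libraries it lay between 4.14 and 7.04.

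Tdg (ENSMUSG00000034674.11), the glycosylase that completes the removal, had 36.7 and 39.8 CPM in wild type and 24.2, 35.9, 39.4 and 32.1 CPM in the 40kb libraries. The ranges overlapped, and the log2 fold change was -0.22 (SE 0.17, adjusted p = 0.467, edgeR). In all, ranges did not overlap for 5 of the 9 genes (Dnmt3l, Uhrf1, Tet1 and Tet2 above, Tet3 below), against 36.2% of all genes tested, 16.4% above and 19.7% below.

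**Figure D2:**
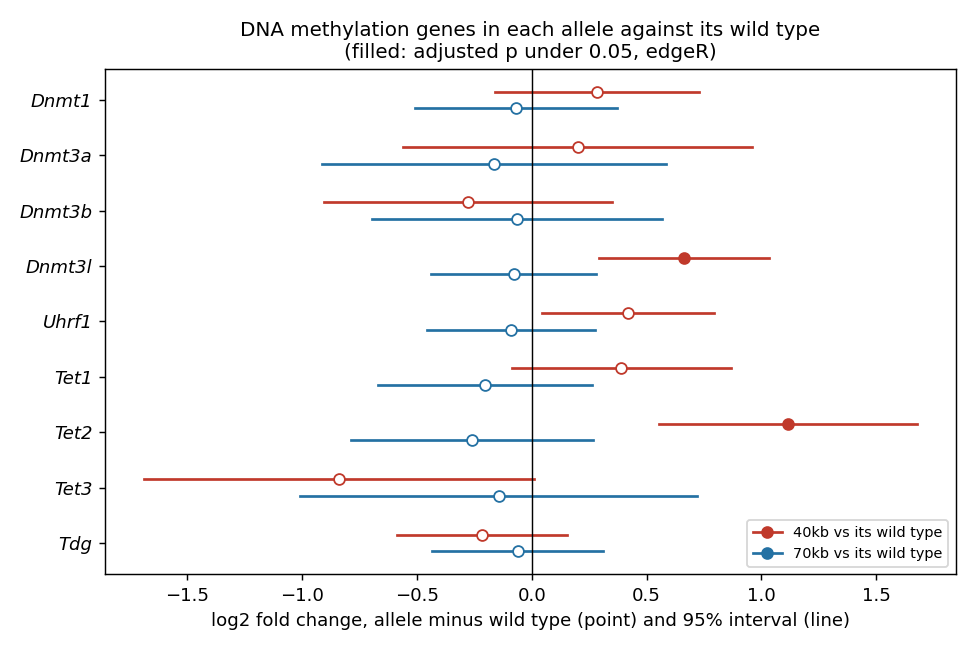
Log2 fold change of each gene in each allele against the wild type of its set, with the 95% interval of the edgeR fit; filled points have an adjusted p under 0.05. Tet2 (1.12) and Dnmt3l (0.66) in the 40kb comparison are the filled points, and all 9 points of the 70kb comparison lie between -0.26 and -0.06.

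The 2 clones of the 40kb allele were set against each other after their levels of Dnmt3a and Tet3 had been seen. In a fit with a mean per clone (6 residual degrees of freedom), clone 2 had 2.20 times the Dnmt3a level of clone 1 (194 against 88.1 CPM, log2 difference 1.14, SE 0.24, adjusted p = 0.0766, edgeR). For Tet3 it had 2.69 times the level (15.6 against 5.80 CPM, log2 difference 1.43, SE 0.25, adjusted p = 0.0593). None of the 9 genes was called between these clones, where 0.0661% of all genes (11) were. At an unadjusted p under 0.05 there were 2 of 9, Dnmt3a and Tet3, the genes whose levels had prompted the test. The share of all genes at that unadjusted threshold was not counted, so this number has no background. The clones differ in their B codes too, but each has 1 library at the code of a wild-type library. At the shared code Tet3 had 7.22 against 18.3 CPM in clone 1 and 16.6 against 20.0 CPM in clone 2, and Dnmt3a had 92.1 against 102 CPM in clone 1 and 185 against 144 CPM in clone 2. These are single libraries, so the clone difference within codes was not tested. Between the 70kb clones, Tet1 differed most, at 868 CPM in clone 1 and 539 CPM in clone 2 (log2 difference -0.69, SE 0.16, adjusted p = 0.247). None of the 9 was called there, where 0.012% of all genes (2) were. Only Tet1 had an unadjusted p under 0.05, again without a count over all genes.

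The second comparison asks the same of the 70kb allele. No gene of the 9 was called by edgeR (adjusted p = 1 for each), none had an unadjusted p under 0.05, and DESeq2 called none. Of all genes tested 0% were called, with 100 (0.601%) at an unadjusted p under 0.05 and 3 called by DESeq2. In none of the 9 did the ranges separate, against 5.48% of all genes (2.4% with the allele higher and 3.08% lower).

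The 2 genes called in the 40kb cells were not called here. Tet2 had 101.5 and 117 CPM in wild type and 95.6, 102, 80.2 and 87.4 CPM in the 70kb libraries, and the log2 fold change of -0.26 (SE 0.24) had a 95% interval from -0.79 to 0.27. Codes 13 and 14 tie the replicates of this set across wild type and clones, and the replicate differences of wild type and both clones correlated at 0.85, 0.32 and 0.27 across genes. Within each code Tet2 was lower in both 70kb libraries than in wild type, and with the code as a block its log2 fold change was -0.26 (SE 0.15, unadjusted p = 0.117, adjusted p = 1, edgeR). For Dnmt3l the levels were 309 and 305.1 CPM in wild type and 275, 361, 298 and 229 CPM in the edited libraries. The edited libraries lay on both sides of wild type, with a log2 fold change of -0.08 (95% interval -0.44 to 0.28). Neither interval reached the value of the same gene in the 40kb cells, but that value has an error of its own. These 2 genes were also picked for their call there. The test of the difference is the interaction given further on, in which neither gene was called (adjusted p = 0.169 for Tet2 and 0.216 for Dnmt3l, edgeR).

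The other de novo writers spanned a wider range in the 70kb libraries than in the wild-type pair, which has fewer libraries. Spread was not tested. Dnmt3a had 182 and 204 CPM in wild type and 179, 212, 187 and 111 CPM in the 70kb libraries. Dnmt3b had 436 and 496 CPM in wild type and 422, 489.8, 561 and 310.1 CPM in the 70kb libraries. Clone 2 replicate 2 was the lowest 70kb library for both, and also for Dnmt1, Dnmt3l, Uhrf1, Tet1 and, narrowly, Tdg (35.50 against 35.55 CPM in clone 1 replicate 1). For Tet3 it was the highest 70kb library. The same library had the highest summed level of 11 trophoblast and simple epithelium genes (802 CPM, against 164 to 499 CPM in its wild type), whose part in these levels was not tested.

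Dnmt1 had 454 and 387 CPM in wild type and 479, 396, 405 and 327 CPM in the 70kb libraries, with a log2 fold change of -0.07 (95% interval -0.51 to 0.37). Uhrf1 had 470.5 and 391 CPM in wild type and 496, 386, 418 and 319.5 CPM in the edited libraries, with a log2 fold change of -0.09 (95% interval -0.46 to 0.28). The 2 maintenance genes thus had their highest and their lowest 70kb value in the same libraries. Tet1 had 742 and 876 CPM in wild type, 839.7 and 896 CPM in the first 70kb clone and 613 and 464 CPM in the second, and the clones lay on either side of wild type replicate 1. Tet3 (17.2 and 21.5 CPM against 13.6 to 21.1 CPM) and Tdg (35.1 and 42.1 CPM against 35.5 to 39.2 CPM) overlapped wild type, with log2 fold changes of -0.14 and -0.06.

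The wild-type pairs themselves stood at unequal levels, and each allele comparison uses its own pair. All 9 genes had a higher mean in the wild type of the 70kb set (column names E14.2) than in that of the 40kb set (column names E14). For 6 of 9 (Dnmt1, Dnmt3a, Dnmt3l, Uhrf1, Tet1 and Tet2) the pairs did not overlap, against 40.2% of all genes (21.2% in that direction). None was called by edgeR, and none had an unadjusted p under 0.05; of all genes tested 0% were called, with 394 (2.37%) at an unadjusted p under 0.05, and DESeq2 called none. The largest log2 differences were 0.65 for Dnmt3a (SE 0.40), 0.44 for Tet1 (SE 0.25) and 0.41 for Dnmt3l (SE 0.19, unadjusted p = 0.0517, adjusted p = 0.997, edgeR). For Tet2 the difference was 0.25 (SE 0.28). The level of Dnmt3l in the 70kb set's wild type, 309 and 305.1 CPM, stood between those of the 40kb set's wild type and of the 40kb libraries.

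The order of the 4 group means was wild type of the 40kb set, 70kb, wild type of the 70kb set and 40kb for Dnmt1, Dnmt3l and Uhrf1. For Tet2 the 70kb libraries (91.2 ± 9.47 CPM, n = 4) and the wild type of the 40kb set (91.8 ± 12.7 CPM, n = 2) were lowest and did not differ beyond their spread, and the 40kb mean was highest. For Tet1 the wild type of the 70kb set was highest (809 ± 94.1 CPM, n = 2), followed by 40kb (779 ± 63.4 CPM, n = 4), within the spread of both. For Tet3 the 40kb libraries were lowest (10.7 ± 5.83 CPM, n = 4), and the other 3 means lay between 17.5 and 19.3 CPM.

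Whether the alleles differed in their effects was tested as an interaction, each allele against its own wild type. None of the 9 genes was called by edgeR, where 0% of all genes were, with 2128 of them (12.8%) and 2 of the 9 at an unadjusted p under 0.05. These 2 were again Tet2, with a difference of 1.38 on the log2 scale (SE 0.35, unadjusted p = 0.00181, adjusted p = 0.169), and Dnmt3l, with 0.74 (SE 0.24, unadjusted p = 0.00805, adjusted p = 0.216). DESeq2 called 399 genes, Tet2 among them (adjusted p = 0.0242) and no other of the 9. The interaction shares its libraries with both allele comparisons. By edgeR, then, the 40kb and 70kb effects on these genes were not shown to differ after adjustment over all genes.

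Other genes of the same pathways were counted in 8 lists chosen by function. In the 40kb comparison, none of 10 methyl-CpG readers was called (median log2 fold change -0.12, from -1.40 for Zbtb4 to 0.49 for Zbtb38). None of 10 partners of maintenance methylation was called either (median 0.21, 8 above 0), from Uhrf2, the paralogue of Uhrf1, at -0.32 to the replication ligase Lig1 at 0.41. Of 14 S-phase genes, whose products act in the same phase as DNMT1 and UHRF1, 13 were above 0 with a median of 0.28 and none was called (largest Mcm2 at 0.42, lowest Ccne2 at -0.26). The median over all genes tested was 0.06.

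Among 10 genes that guide or limit methylation none was called. They ranged from Dppa3, whose product keeps UHRF1 from chromatin, at -1.73 (SE 0.56, adjusted p = 0.0882, edgeR) to Zfp57, a zinc finger protein that protects methylation at imprinted regions, at 0.87 (SE 0.25, adjusted p = 0.0553). Of 10 genes of TET partners and cofactor supply, 1 fell, where 5.67% of all genes were called lower. This was Cxxc4, whose CXXC protein binds TET2 and lowers its amount. Cxxc4 had 0.616 ± 0.0947 CPM (SD, n = 2) in wild type and 0.198 ± 0.0771 CPM (SD, n = 4) in the 40kb libraries (log2 fold change -1.62, SE 0.40, adjusted p = 0.036, edgeR). These levels are near the floor of the counts, and a link to the RNA level of Tet2 was not tested. The other 9 of that list ran from -0.99 to 0.16 without a call.

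In a list of excision repair genes that also held the deaminase gene Apobec1, none of 10 tested was called (median 0.24, from Lig3 at -0.18 to Neil2 at 0.68). None of 11 genes of methyl donor supply was called either (median 0.25, from Gnmt at -0.55 to Tdh, threonine dehydrogenase, at 0.72). Of 14 tested germline genes whose promoters are commonly methylated in somatic cells, 1 rose, where 0.763% of all genes were called higher. This was Hormad1, a protein of meiotic chromosomes. It rose from a mean of 13.01 ± 1.61 CPM (SD, n = 2) to one of 50.2 ± 33.8 CPM (SD, n = 4), by 1.95 in log2 terms (SE 0.48, adjusted p = 0.0353, edgeR). The other 13 ran from -1.03 to 1.12 and were not called. In the 70kb comparison no gene of the 8 lists was called.

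**Figure D3:**
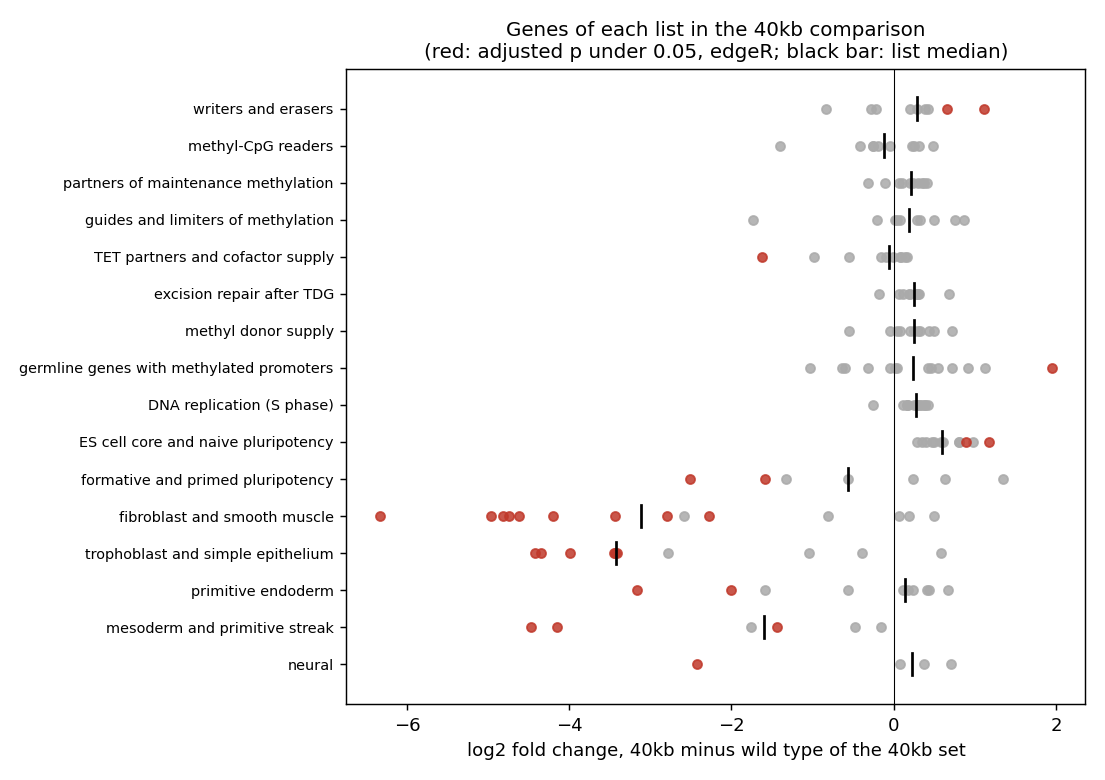
Log2 fold change in the 40kb comparison of every tested gene of each list (points), with genes of adjusted p under 0.05 in red and list medians as black bars. The writers and erasers and the pathway lists (top) lie mostly within 1 unit of 0. Lists of trophoblast, mesoderm and fibroblast genes (bottom) hold called genes down to -4.42, -4.47 and -6.33. The last is Postn, near the floor of the counts (means 0.0068 CPM in the 40kb libraries and 0.77 CPM in wild type).

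Some markers of cell states and of other cell types passed the test in the 40kb comparison too, and their part in the levels of Tet2, Dnmt3l and the other genes was not tested. There, 0.763% of all genes tested were called higher and 5.67% lower. Of 12 genes of core and naive pluripotency all 12 were above 0 and 2 rose, Nr0b1 (1.17, adjusted p = 0.046, edgeR) and Fgf4 (0.89, adjusted p = 0.0488), and their summed level was 2996 to 3774 CPM in wild type and 4619 to 5655 CPM in the 40kb libraries. Of 7 tested formative and primed genes, Fgf5 (-2.51) and Pim2 (-1.59) fell, 3 were above 0 without a call (Lef1 at 1.35, Zic2 at 0.63 and Otx2 at 0.23), and the summed levels overlapped (256 to 304 CPM in wild type, 130.2 to 292 CPM in the 40kb libraries). Pou3f1 of that list was at 0 counts in all 12 libraries.

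Of 10 tested trophoblast and simple epithelium genes 6 fell, and the summed level of the 11 on the list was 522 to 636 CPM in wild type, 45.1 to 134.6 CPM in the 40kb libraries, 164 to 499 CPM in the other wild type and 148 to 802 CPM in the 70kb libraries. Of 14 tested fibroblast and smooth muscle genes 9 fell, among them Tagln (-4.19) and Acta2 (-4.75). Some of the 9 were near the floor in wild type, such as Postn (0.77 CPM) and Dcn (0.66 CPM). Above 0 without a call were 3 (Thy1 at 0.50, Fn1 at 0.19 and Vim at 0.07). The summed level overlapped (1527 to 1677 CPM against 1189 to 1905 CPM). Most of that sum was Fn1, which was not called (mean 1093 CPM in wild type and 1243 CPM in the 40kb libraries). Postn and Lum were each at 0 counts in 3 of the 4 40kb libraries, but Lum was also at 0 in both wild-type libraries of the 70kb set and in both 70kb clone 1 libraries, and Postn in 1 of each. Of 6 tested mesoderm genes 3 fell (summed level 10.2 to 42.8 CPM against 1.76 to 3.78 CPM). Of 10 endoderm genes, Dab2 and Cited1 (-3.17) fell, while 6 were above 0 without a call (median of the list 0.14). Of 4 tested neural genes Nes (-2.43) fell, and the other 3 were above 0 without a call (0.07 to 0.70). The 4 40kb libraries held the 4 lowest sums of trophoblast and simple epithelium genes among the 12, with Elf5 at 0 counts in 3 of them, Cdx2 in 2 and Gata3 in 1. Most of that sum in their wild type was Krt8 and Krt18 (means 243 and 194 CPM, against 11.4 and 12.2 CPM in the 40kb libraries). Cdx2 and Gata3 were low in that wild type too (1.52 and 1.28 CPM). Hand1 (-2.78), Eomes (-1.04), Tfap2c (-0.39) and Ascl2 (0.58) were not called.

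The genes whose level over the 12 libraries was most like that of each of the 9 were taken from 12433 genes by Pearson's r of log2 CPM. The libraries share clones and sets, so r is a description. Dnmt1 was most like Parp1 (0.97), Pcnt (0.97) and Cog7 (0.96), and Uhrf1 was most like Aspscr1 (0.95), the replication helicase subunit Mcm3 (0.95) and Prune1 (0.94). Dnmt3a was most like F2rl1 (0.97), Psmd9 (0.97) and Rab1b (0.95), Dnmt3b like Arpc4 (0.96), Spryd3 (0.96) and Nudcd3 (0.95), and Dnmt3l like Mrpl37 (0.94), Tfpt (0.94) and Angptl4 (0.94). Tet1 was most like Usp7 (0.92), which encodes a partner of DNMT1 and UHRF1, Med23 (0.91) and Ccdc174 (0.91). Among those most like Tet2 were the histone demethylase gene Kdm4c (0.95) and Vps39 (0.95), among those most like Tet3 were Asphd2 (0.98) and Nat8l (0.97), and those most like Tdg were Slc29a2 (0.98), Clint1 (0.98) and Alad (0.96).

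Among the 9 genes themselves, r over the 12 libraries ran from -0.77 to 0.89 in 36 pairs. Dnmt3b and Tdg were most alike (0.89), followed by the maintenance pair Dnmt1 and Uhrf1 (0.81) and the de novo enzymes Dnmt3a and Dnmt3b (0.79). The 3 most opposed pairs all held Tet2: with Tet3 (-0.77), with Tdg (-0.76) and with Dnmt3b (-0.72). With 4 groups that differ in level, these values mix differences between groups with those between libraries of a group.

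**Figure D4:**
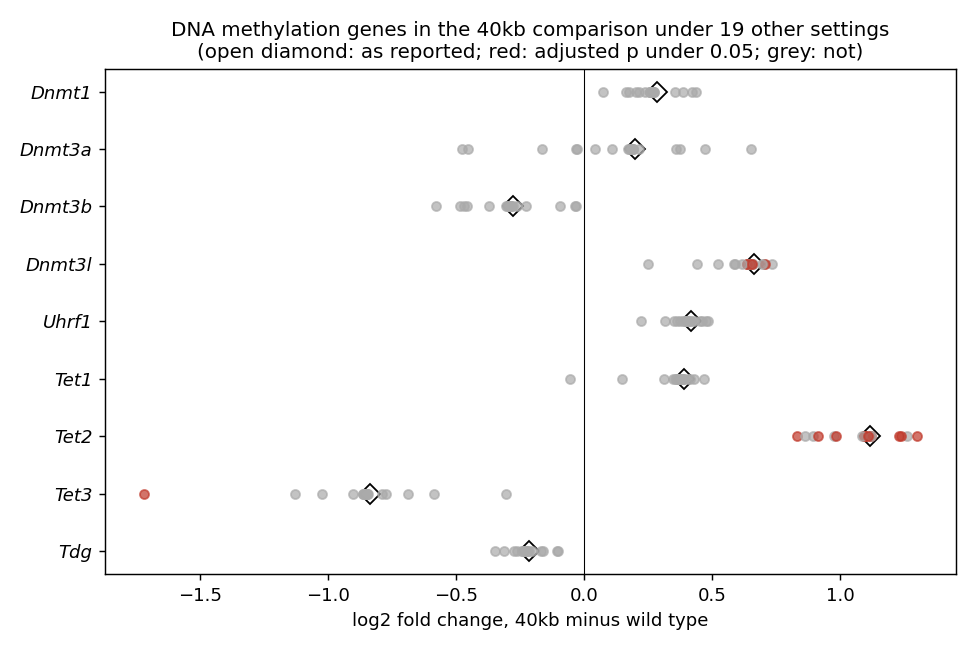
Log2 fold change of each gene in the 40kb comparison as reported (open diamonds) and under 19 other settings (points, red where the adjusted p is under 0.05). Tet2 stays between 0.83 and 1.30 and is called in 13 of 19 settings, Dnmt3l stays between 0.25 and 0.73 and is called in 8, and Dnmt3a lies on both sides of 0.

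Across the 19 settings, the 2 genes called in the 40kb cells ran from 0.83 to 1.30 for Tet2 (called in 13 of 19) and from 0.25 to 0.73 for Dnmt3l (called in 8 of 19). For both genes every 40kb library lay above every wild-type library of either set, so their sign could hardly change. The settings share the same libraries and are not independent of each other. Dnmt1 and Uhrf1 stayed above 0 and Dnmt3b, Tet3 and Tdg below 0 in all 19, without a call other than that of Tet3 in clone 1 alone. Dnmt3a was below 0 in 5 of the 19 and Tet1 in 1. The number of the 9 genes called was 0 without wild-type replicate 1 and without wild-type replicate 2, settings in which no gene of the whole table was called by edgeR.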

How the data were processed

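RNA-seq libraries were made with a kit that keeps strand and selects polyadenylated RNA, per the labels' protocols. The authors deposited 1 table of whole-number counts per gene for 12 libraries, and the submitters' processing notes name STAR, edgeR and the build mm9. The sources used here do not say how strand was set in counting. Of 37310 gene identifiers 32620 matched a symbol, and all 9 genes of interest did. Sample groups came from the titles, and no table column was without a sample. Other data types of the series were not analysed here.

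The main test was edgeR 4.0.16 (R 4.3.3) after TMM scaling and its default filter on low counts (16636 genes left), with a quasi-likelihood F test in 1 fit of 12 libraries with 4 group means (8 residual degrees of freedom, biological coefficient of variation 23.8%). P-values were adjusted by Benjamini-Hochberg over all genes tested, with a threshold of 0.05. DESeq2 1.42.0 was the alternative tool. Log2 CPM for correlations used a prior count of 2 and genes of at least 50 counts on average. Intervals are at 95%. The script was tested on simulated counts. Promoter windows came from RefSeq on GRCm38.p6, all 9 genes matching 16 windows. No coordinates of mm9 are given.

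The 9 genes, the lists and the alternatives were chosen with earlier results of these data known. Named are all 9 genes, up to 3 called genes of each pathway list or its largest rise and fall, and the 3 genes most like each of the 9, except 1 for Tet2 and 1 for Tet3 that are not reported here. Aire and the marker genes named were chosen after their values were seen. Alternatives were other scaling, filters and tool, libraries or clones left out, another wild type, counts summed per clone, and the replicate number or the B code as a block.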

Additional observations from a re-analysis of the deposited data

How the results depend on the processing

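With 2 wild-type libraries a set, calls rest on each of them. The number of the 9 genes called in the 40kb comparison ranged from 0 to 2 when 1 library was left out. It was 1 in the 6 libraries of the set alone, against all 4 wild-type libraries and with blocking on the B code, and 0 against the 70kb set's wild type, with clone 2 alone and with counts summed per clone. It was 2, Tet2 and Dnmt3l, with other scaling, with other filters and with DESeq2. With clone 1 alone it was also 2, but these were Tet2 and Tet3 (adjusted p = 0.0214, edgeR), and Dnmt3l was not called (adjusted p = 0.0667). The number of all genes called there, 1070, ranged from 0 to 1099 when 1 library was left out. It was 1874 with DESeq2, 357 with blocking on the B code, 3 with counts summed per clone, 2 with clone 2 alone and 0 against the 70kb set's wild type. Settings with fewer libraries test with less data, and blocking on the B code leaves the 40kb effect to the libraries of codes 2 and 6. Otherwise the cause was not tested. In the 70kb comparison the number of all genes called was 3 with DESeq2 and 1 without a filter, against all 4 wild-type libraries or with clone 1 alone. For the difference between alleles DESeq2 called 1 of the 9 genes and 399 genes in all, edgeR without a filter 10, and leaving out 1 library gave 0 to 1.

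Replicate numbers do not pair the samples by the labels, and only 2 numbers exist. With the replicate block 2 of the 9 genes were called, Tet2 at a log2 difference of 1.11 (adjusted p = 0.0223) and Dnmt3l at 0.66 (adjusted p = 0.0402, edgeR), and no call among the 9 changed. Differences between replicates correlated at 0.85 between wild type and clone 1 of the 70kb set, at 0.32 with clone 2 and at 0.27 between those clones, where the B codes follow the replicate numbers, and at 0.04, -0.17 and 0.22 in the 40kb set, where they do not. In the 70kb comparison 0 of the 9 genes were called with either block.

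Signs reversed for values that were not called. In the 40kb comparison, Dnmt3a was -0.45 against the 70kb set's wild type, -0.16 against all 4 wild-type libraries, -0.48 with clone 1 alone and -0.030 to 0.47 when 1 library was left out, and Tet1 was -0.055 against the 70kb set's wild type. In the 70kb comparison with the 40kb set's wild type instead, values were 0.14 for Dnmt1, 0.49 for Dnmt3a, 0.12 for Dnmt3b, 0.33 for Dnmt3l, 0.11 for Uhrf1 and 0.24 for Tet1. Against all 4 wild-type libraries they were 0.034, 0.13, 0.022, 0.11, 0.0055 and 0.0030 in the same order. With clone 1 alone they were 0.060 for Dnmt1, 0.022 for Dnmt3a, 0.053 for Dnmt3l, 0.038 for Uhrf1 and 0.10 for Tet1, and with clone 2 alone 0.0038 for Tet3. Leaving out 1 library of that comparison gave -0.18 to 0.053 for Dnmt1, -0.19 to 0.074 for Dnmt3b, -0.20 to 0.021 for Dnmt3l, -0.22 to 0.050 for Uhrf1, -0.30 to 0.027 for Tet3 and -0.19 to 0.076 for Tdg. Between the wild types, Tet3 was -7.04e-05 with RLE scaling and -2.33e-05 with DESeq2, and Tdg was -0.0046 with RLE scaling, -0.0037 with a mean of at least 50 counts and -0.0046 with DESeq2. Leaving out 1 library gave -0.026 to 0.42 for Dnmt3b, -0.15 to 0.17 for Tet3 and -0.12 to 0.14 for Tdg. For Dnmt3b the difference between alleles ran from -0.42 to 0.029 likewise.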
